A study of Saccharomyces cerevisiae with 7 samples.

Results

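Heme is the iron-containing ring that cytochromes, catalases and sterol-synthesis enzymes carry at their active sites. Yeast builds it from glycine and succinyl-CoA in a pathway that begins in the mitochondrion, continues in the cytosol and ends in the mitochondrion again, where iron is inserted. Some of its steps need oxygen, and several of its genes are known to respond to heme, oxygen or iron supply. The 10 genes described here are the 8 enzymes of heme synthesis (HEM1, HEM2, HEM3, HEM4, HEM12, HEM13, HEM14 and HEM15), the heme oxygenase HMX1, which breaks heme down, and PUG1, a plasma membrane protein of porphyrin uptake and heme efflux. They were taken by gene symbol from the array's annotation, out of 5449 S. cerevisiae genes that 5498 probesets name. Probesets were selected on the highest mean signal over the 7 arrays, and since each of the 10 genes had a single probeset, that mean decided nothing here. PUG1 was already known to be among the probesets that fell furthest on these arrays when the genes were chosen.

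The arrays hold total RNA of the cir+ budding yeast NRRL Y-12632 after 24 h of aerobic growth at a single time point. There are 4 arrays of separate cultures in YPD, a rich medium of yeast extract, peptone and glucose, made with simulated asbestos mine drainage (filtered water from freeze-thawed asbestos mine tailings), and 3 arrays of separate cultures in YPD made with deionized water, the control. All 7 cultures started from the same control culture. The study's media analysis gave more magnesium, a higher pH and somewhat more iron, chloride, sulfate, nitrate and calcium in the mine drainage media. The comparison asks how growth in mine drainage media changes expression. Values are log2 signals of the Affymetrix Yeast Genome 2.0 array, so that a difference of 1 is a doubling, and a signal cannot be compared between genes. RNA of a whole culture does not tell fewer cells with a transcript from less transcript per cell.

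Differences are mine drainage minus control, tested with limma, which fits a linear model to each probeset and steadies its spread with that of the others, and p-values were adjusted over all 5498 probesets by the Benjamini-Hochberg method. A gene is called at an adjusted p under 0.05. Calls were common on these arrays. Over all S. cerevisiae probesets 14.5% were called higher and 17.1% lower, together 31.6%. The array also carries paired probesets for the 3' and 5' ends of 11 control transcripts, and the mean of 3' minus 5' (the 3'/5' gap below, a measure of RNA and cDNA integrity) averaged 0.535 ± 0.150 (SD) for mine drainage and 0.848 ± 0.158 for control (exact permutation test, two-sided, p = 0.0571, where the 35 splits allow no p below 0.0286). All 10 genes lay above 1.52, the 95th percentile of the Schizosaccharomyces pombe probesets that have no designed target in these cultures, on every array.

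HEM1, HEM13 and HMX1 rose and PUG1 fell, while the other 6 genes were not called. These 4 of 10 stand close to the 31.6% called over all probesets, so the count by itself says little about heme genes. The sizes differed widely. PUG1, already known to have fallen far when the genes were chosen, had the second lowest difference of all 5498 probesets, behind that of IRC10. HEM1 had a difference that 141 probesets reached or passed, its own included. The median difference of the 10 genes was 0.19, against -0.03 over all probesets.

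**Figure D1:**
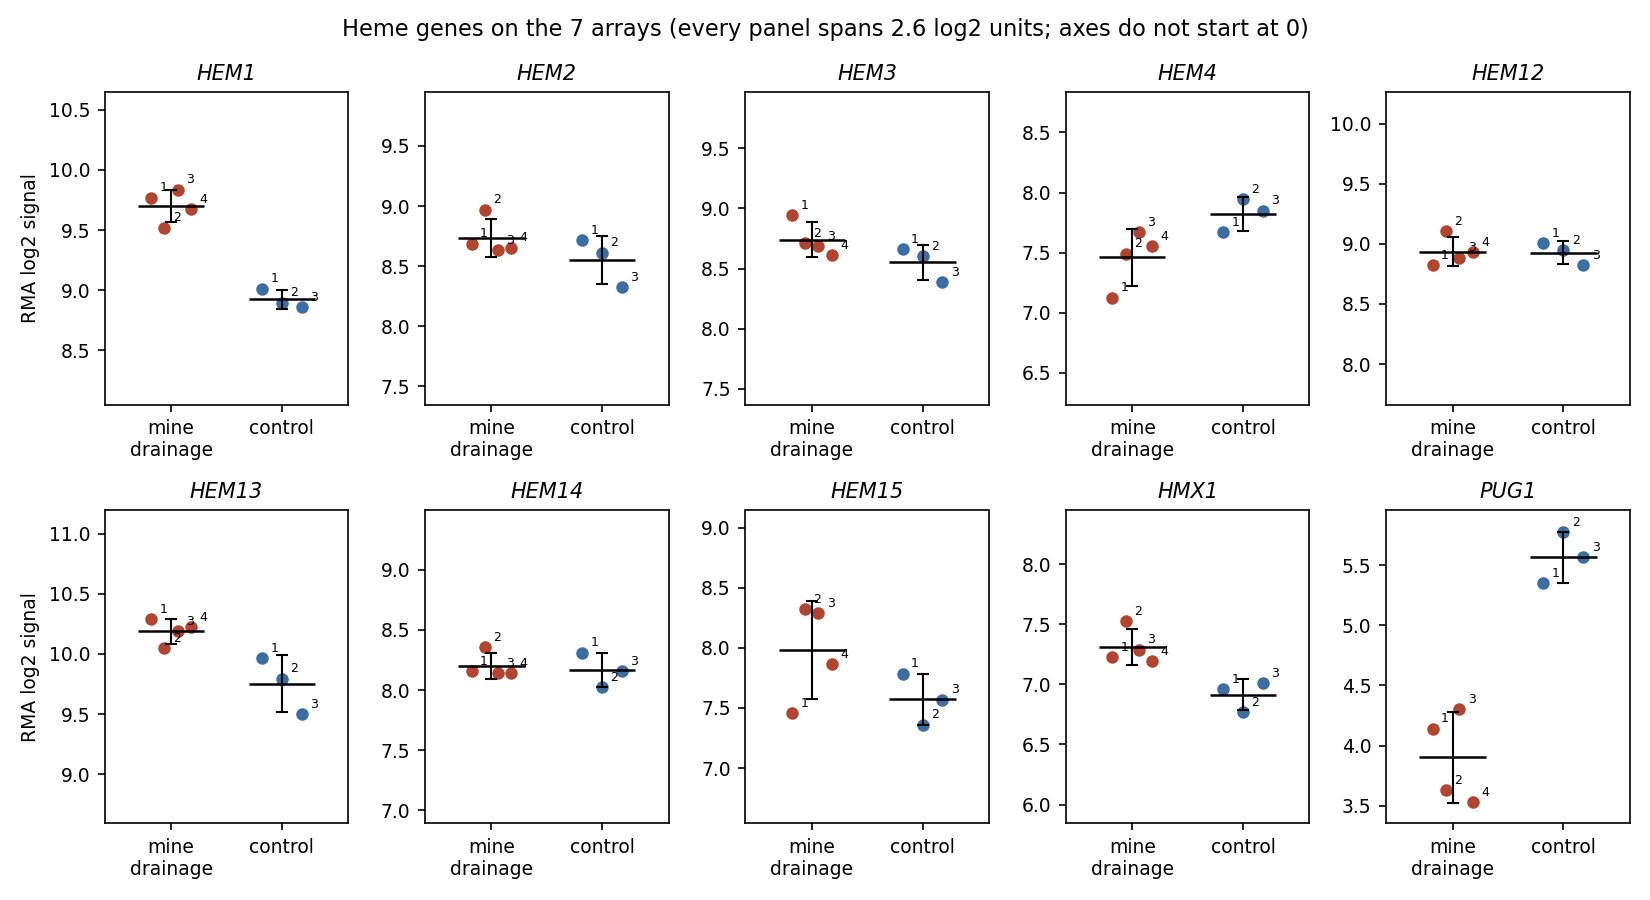
RMA log2 signal of the 10 heme genes on the 4 mine drainage arrays (left in each panel) and the 3 control arrays (right); small digits are replicate numbers, horizontal bars are means and whiskers are SD. HEM1, HEM13 and HMX1 lie higher on every mine drainage array than on any control array, PUG1 lies lower on every one, and the groups overlap or touch for the other 6.

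HEM1 encodes 5-aminolevulinate synthase, the mitochondrial enzyme that joins glycine and succinyl-CoA in the first step. Its log2 signal was 9.77, 9.52, 9.84 and 9.67 on mine drainage replicates 1 to 4, and 9.01, 8.90 and 8.86 on control replicates 1 to 3. The groups lay well apart, with more than the whole range of either group between them. The mean was 9.70 ± 0.137 in mine drainage and 8.92 ± 0.0796 in control (SD, 4 and 3 arrays), a rise of 0.78 (standard error 0.10) or 1.71-fold (limma adjusted p = 0.00242). The difference was 0.63 once the 3'/5' gap entered the fit as a covariate, with an adjusted p of 0.0695.

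The cytosolic steps that follow gave smaller differences, and none was called. HEM2, porphobilinogen synthase, had log2 signals of 8.69, 8.97, 8.64 and 8.65 in mine drainage and of 8.71, 8.61 and 8.33 in control, a difference of 0.19 with a 95% interval of -0.10 to 0.47. HEM3, porphobilinogen deaminase, had 8.95, 8.71, 8.68 and 8.61 in mine drainage and 8.66, 8.60 and 8.39 in control, likewise a difference of 0.19 (95% interval -0.07 to 0.44). For both enzymes the groups overlapped, with control replicate 3 below the other 6 arrays. These intervals end below the 0.54 at which the interval of HEM1 begins, although the differences between genes were not tested.

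HEM4 encodes uroporphyrinogen III synthase, which closes the ring, and was the only enzyme of the pathway with a negative difference. Its log2 signal was 7.13, 7.49, 7.67 and 7.56 in mine drainage and 7.67, 7.94 and 7.85 in control. Mine drainage replicate 3 and control replicate 1 shared the same value, and otherwise every mine drainage array lay below every control array. The difference was -0.36 (95% interval -0.67 to -0.05), which had an unadjusted p of 0.0266 but missed the threshold after adjustment (limma adjusted p = 0.0722). HEM12, uroporphyrinogen decarboxylase, had 8.82, 9.10, 8.89 and 8.93 in mine drainage and 9.01, 8.95 and 8.82 in control. Its groups overlapped almost completely, with a difference of 0.01 (95% interval -0.22 to 0.24) whose sign turned in 4 of 16 alternative settings.

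HEM13 encodes coproporphyrinogen III oxidase, which uses molecular oxygen and is known to be repressed by heme and oxygen through Rox1. Its log2 signal was 10.29, 10.05, 10.19 and 10.22 in mine drainage and 9.97, 9.79 and 9.50 in control. The groups did not overlap, and the nearest pair, mine drainage replicate 2 and control replicate 1, stood 0.081 apart. The rise was 0.43 (standard error 0.12), or 1.35-fold, with a limma adjusted p of 0.0264. This call was lost in 8 of 16 alternative settings. Among these were leaving out mine drainage replicate 3 (adjusted p = 0.0602), mine drainage replicate 4 (0.0653), control replicate 2 (0.0808) or control replicate 3 (0.0999, with a difference of 0.31). With the 3'/5' gap as a covariate the difference was 0.12 (adjusted p = 0.61).

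HEM14 and HEM15 complete the pathway. HEM14, protoporphyrinogen oxidase, had log2 signals of 8.15, 8.36, 8.14 and 8.14 in mine drainage and of 8.31, 8.03 and 8.15 in control, with overlapping groups and a difference of 0.03 (95% interval -0.20 to 0.27). The annotation has 1 other gene overlapping HEM14, BUD25, which by its systematic name lies on the opposite strand and which had a probeset of its own, with a difference of 0.21 (adjusted p = 0.207). HEM15, the ferrochelatase that inserts iron into protoporphyrin IX, was the most variable of the enzymes in mine drainage, at 7.46, 8.32, 8.29 and 7.87, against 7.79, 7.36 and 7.57 in control. Mine drainage replicate 1 lay within the control range and replicates 2, 3 and 4 above it. The difference was 0.41 with a wide interval, -0.05 to 0.87 (limma adjusted p = 0.149), and 0.59 without mine drainage replicate 1 (adjusted p = 0.0247). The interval takes in both 0 and the size of the rise in HEM13 and HMX1.

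**Figure D2:**
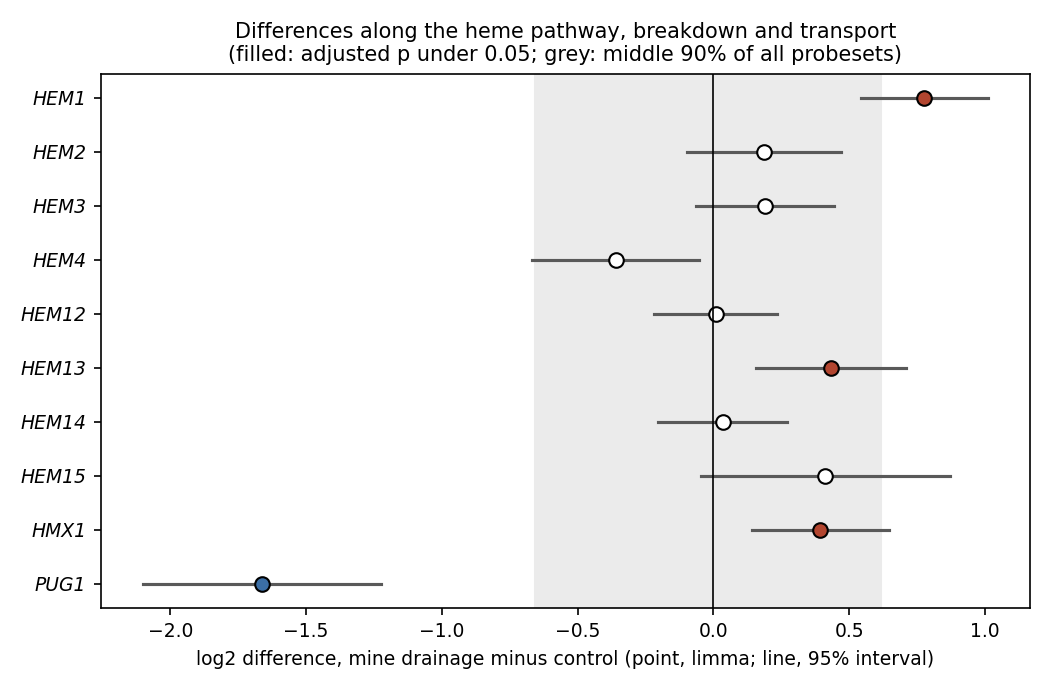
Log2 difference, mine drainage minus control, of the 10 heme genes in pathway order with HMX1 and PUG1 last; points are limma estimates, lines are 95% intervals, filled points have an adjusted p under 0.05, and the grey band holds the middle 90% of all probesets. HEM1 at 0.78 and PUG1 at -1.66 lie outside the band, while HEM13 at 0.43 and HMX1 at 0.39 lie inside it.

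HMX1 encodes the heme oxygenase of the endoplasmic reticulum, which opens the ring and frees its iron, and it is known to be induced through the iron regulator Aft1. Its log2 signal was 7.22, 7.52, 7.29 and 7.19 in mine drainage and 6.96, 6.77 and 7.01 in control. All of the mine drainage values exceeded all of the control values, and replicate 2 lay highest. The mean was 7.31 ± 0.150 in mine drainage and 6.91 ± 0.129 in control, a rise of 0.39 (standard error 0.11) or 1.31-fold (limma adjusted p = 0.0269). HMX1 lost its call in 6 of 16 alternative settings. These include leaving out control replicate 2, the lowest array (difference 0.32, adjusted p = 0.126), control replicate 3 (adjusted p = 0.0523) and mine drainage replicate 3 (adjusted p = 0.0575). With the 3'/5' gap as a covariate it was 0.58 (adjusted p = 0.0831).

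PUG1 takes up protoporphyrin IX and exports heme, and is known to be induced when oxygen or heme is low. Its log2 signal was 4.14, 3.63, 4.31 and 3.53 in mine drainage and 5.35, 5.78 and 5.57 in control. The groups were 1.04 log2 units apart at their nearest arrays, mine drainage replicate 3 and control replicate 1. The mean was 3.90 ± 0.379 in mine drainage and 5.56 ± 0.214 in control (SD, 4 and 3 arrays), a fall to about 0.316 of the control level, or 3.17-fold (log2 difference -1.66, standard error 0.20, limma adjusted p = 0.00177). PUG1 was the dimmest of the 10 genes. Its mean over the 7 arrays, 4.61, stood at percentile 7.24 of the S. cerevisiae probesets, against percentiles 42.3 to 93.7 for the rest. The mine drainage arrays of PUG1 formed an upper pair, replicates 1 and 3, and a lower pair, replicates 2 and 4. The log2 difference stayed between -1.89 and -1.53 in 16 alternative settings and was called in 15 of them, with -1.72 (adjusted p = 0.0522) for the 3'/5' covariate.

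In 3 of the 10 genes all mine drainage arrays exceeded all control arrays, as in 17.7% of all probesets, and in 1 they all lay lower, as in 20.5% (together 38.2%). The called genes lie at the start of the pathway (HEM1), at the coproporphyrinogen oxidase step (HEM13), in breakdown (HMX1) and in transport (PUG1).

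PUG1 belongs to a small family of membrane proteins with RTA1, YLR046C and RSB1, of which RSB1 is known for the export of sphingoid long-chain bases. All 3 were called, but not in the same direction. RTA1 had log2 signals of 5.71, 5.50, 5.57 and 5.55 in mine drainage and of 6.43, 6.29 and 6.37 in control, a fall of 0.78 (limma adjusted p = 0.00177), and was called in all 16 alternative settings. YLR046C fell by 0.49 (adjusted p = 0.0183), with 5.77 to 6.27 in mine drainage and 6.49 to 6.63 in control. RSB1 rose by 0.56 (adjusted p = 0.0196), with 6.92 to 7.49 in mine drainage and 6.55 to 6.79 in control. PUG1, RTA1 and YLR046C were lower and RSB1 higher on every mine drainage array than on any control array. Over all probesets 31.6% were called and in 38.2% the groups did not overlap, and so few genes say little about a family. YLR046C lost its call in 4 and RSB1 in 5 of 16 alternative settings.

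**Figure D3:**
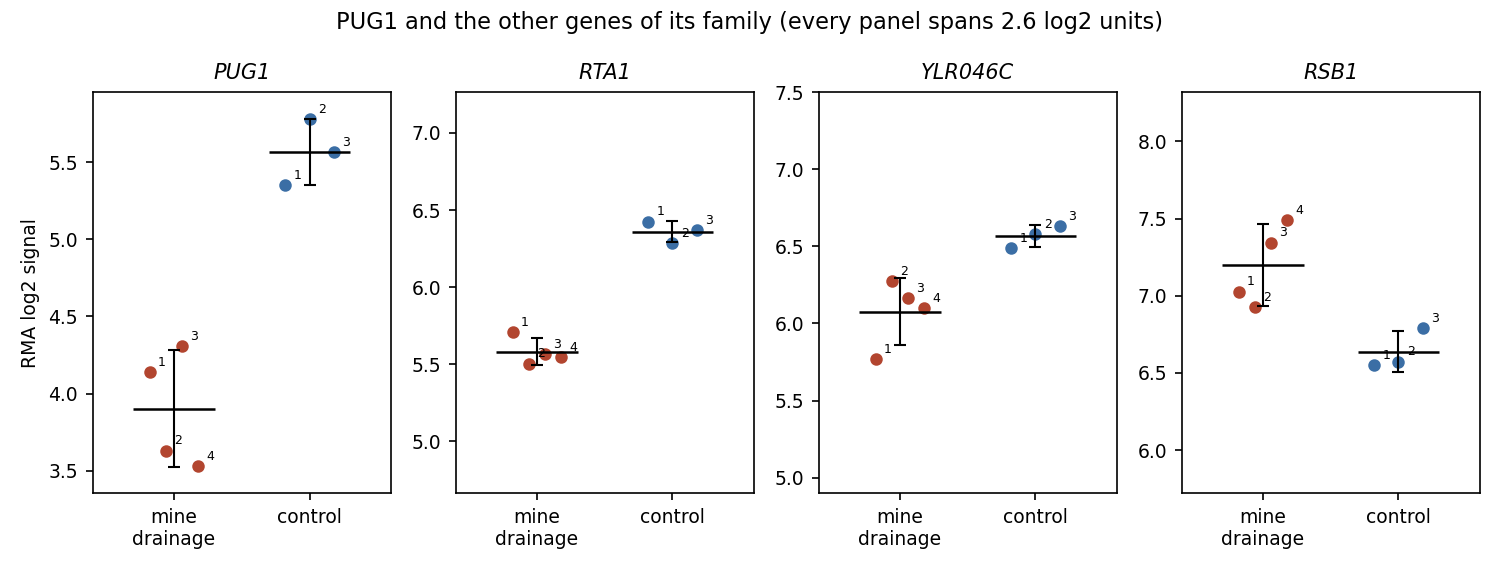
RMA log2 signal of PUG1 and the other 3 genes of its family on the mine drainage arrays (left in each panel) and the control arrays (right), drawn with the same span; small digits are replicate numbers, bars are means and whiskers are SD. PUG1, RTA1 and YLR046C are lower in mine drainage, by 1.66, 0.78 and 0.49 log2 units, and RSB1 is higher by 0.56.

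PUG1 lies near the right end of chromosome V, with 7 annotated genes after it. Its neighbours were read after the values of PUG1 were known. TOG1, the adjacent gene on the inner side, fell by 0.78 (limma adjusted p = 0.00211), at 4.78 in mine drainage and 5.56 in control. On the outer side YER186C had a difference of -0.41 that missed the threshold (adjusted p = 0.0542), and YER187W fell by 0.86 (adjusted p = 0.00516). Of the 7 genes on the inner side 5 had a usable probeset and 1 of these, TOG1, was called lower, while FAU1, FMP10, SLO1 and ISC10 were not called, at 0.17, 0.11, -0.21 and -0.24. Of the 7 on the outer side only 3 had one, and 1 of these, YER187W, was called lower, with YER188C-A at -0.16 (adjusted p = 0.797). Over all probesets 17.1% were called lower, and 2 of so few genes say little about the region.

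The genes whose signal followed PUG1 most closely over the 7 arrays, out of 5367 others compared, were CWC23, a splicing-associated J protein (Pearson r = 0.995), SCP1, an actin-bundling protein (0.988), SSY1, the plasma membrane sensor of amino acids (0.986), GYP7, an activator of the vacuolar GTPase Ypt7 (0.984), and YHI9 (0.983). Those closest to HMX1 were RSM27, a protein of the mitochondrial ribosome (0.972), YNL320W (0.971), ISA1, of mitochondrial iron-sulfur cluster assembly (0.970), KTR1, a mannosyltransferase (0.969), and POM33, of the nuclear pore (0.969). These correlations are descriptions over 7 arrays in 2 groups, and a gene that separates the groups cleanly will share much of them. The 5 genes like PUG1 were picked for following it, so their lower signal in mine drainage is no separate result. Their falls were 0.45 to 0.81 log2 units, less than that of PUG1 itself.

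The substrates of HEM1 come from glycine synthesis and the TCA cycle. Of 8 genes of glycine synthesis and succinyl-CoA metabolism, 4 rose and none fell (median difference 0.21). Over all probesets 14.5% were called higher and 17.1% lower. GLY1, the threonine aldolase that makes glycine, had log2 signals of 8.12, 8.31, 8.25 and 7.97 in mine drainage and of 7.37, 7.06 and 7.14 in control, and rose by 0.97 (limma adjusted p = 0.00186). SHM2, the cytosolic serine hydroxymethyltransferase, rose by 0.80, its mitochondrial counterpart SHM1 by 0.35, and LSC1, the alpha subunit of succinyl-CoA ligase, by 0.40. The subunits of 2-oxoglutarate dehydrogenase, which makes succinyl-CoA, were not called, nor was LSC2. Transcript signals do not measure the supply of glycine or succinyl-CoA, which was not tested. HEM25, the mitochondrial glycine carrier used for heme synthesis, had a difference of -0.24 (adjusted p = 0.118).

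Of 8 genes for heme assembly, heme A synthesis and glycine import, 3 rose and 1 fell, beside 14.5% higher and 17.1% lower over all probesets. CYC3 and CYT2, the lyases that attach heme to cytochromes c and c1, rose by 0.44 and 0.50 (limma adjusted p = 0.0252 and 0.0192). CYT2 had 7.09, 7.16, 6.80 and 6.70 in mine drainage and 6.57, 6.40 and 6.34 in control. COX10, which makes the heme A precursor, rose by 0.48 (adjusted p = 0.034) although mine drainage replicate 3 lay just below control replicate 1, and it lost its call in 8 of 16 alternative settings. CYC2, a mitochondrial protein that assists heme attachment to cytochrome c, fell by 0.36 (adjusted p = 0.0224). MET1 and MET8, which divert uroporphyrinogen III to siroheme, were not called, at -0.34 and 0.06.

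Among 16 proteins that carry heme, a cytochrome b5 domain or siroheme, 8 rose and none fell, with a median difference of 0.44. Over all probesets 14.5% were called higher and 17.1% lower, and the median was -0.03. DAP1, a small heme-binding protein that acts with the sterol P450 enzyme ERG11, rose most. It had log2 signals of 7.90, 8.40, 8.77 and 8.68 in mine drainage and of 7.13, 6.84 and 7.50 in control, a rise of 1.28 or 2.43-fold (limma adjusted p = 0.00411), called in all 16 alternative settings. ERG5, the P450 desaturase of ergosterol synthesis, rose by 0.85, SCS7, a sphingolipid hydroxylase with a cytochrome b5 domain, by 0.73, and CCP1, the mitochondrial cytochrome c peroxidase, by 0.48. The other 4 that rose, CYB5, CTA1, OLE1 and ERG11, had differences of 0.35 to 0.65. CYC1, the main cytochrome c of cells in air, named after its value was seen, had 0.24 (adjusted p = 0.0923).

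**Figure D4:**
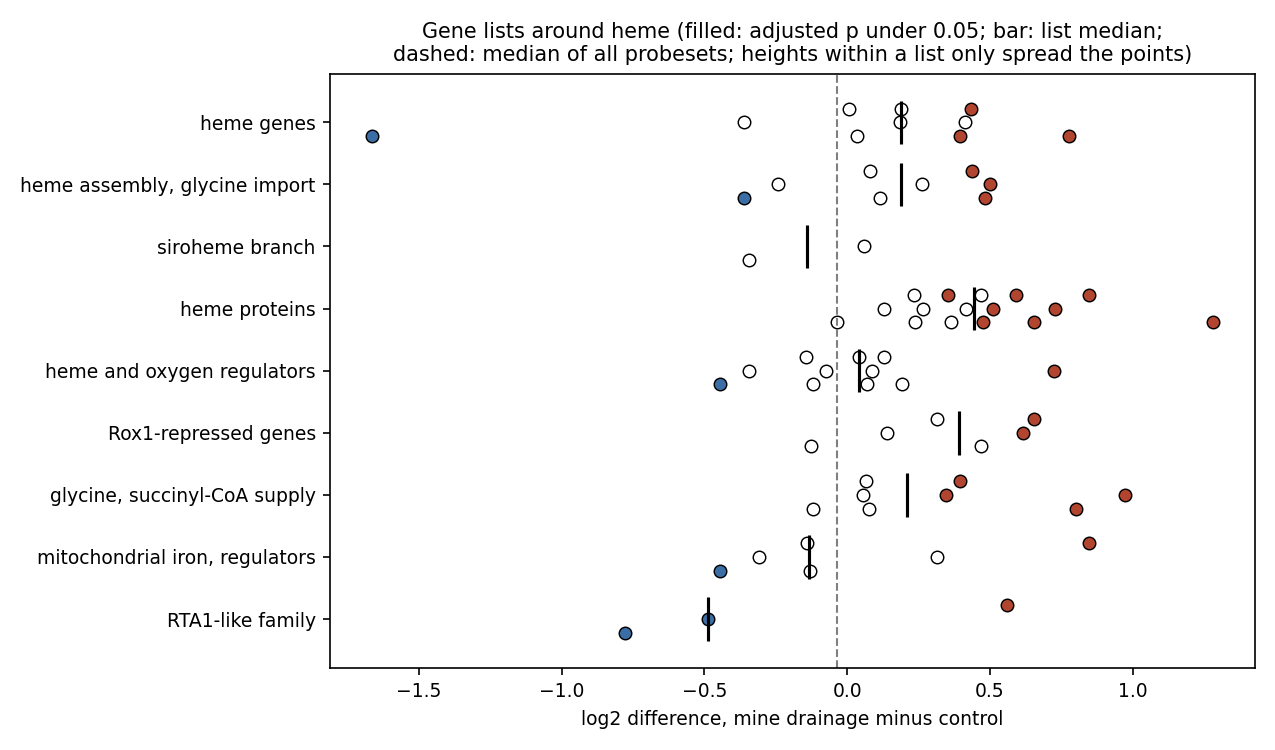
Log2 difference, mine drainage minus control, of every gene on the lists around heme, 1 row per list; filled points have an adjusted p under 0.05, black bars are list medians and the dashed line is the median of all probesets at -0.03. The heme proteins have a median of 0.44 with 8 of 16 called higher, and the regulators have 1 called higher and 1 lower of 11.

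Of 11 regulators that answer to heme, oxygen or carbon source, 1 rose and 1 fell. These 2 of 11 (18.2%) are a smaller share than the 31.6% called over all probesets, so the count is no result about the regulators. HAP4, the activating subunit of the Hap2/3/4/5 complex of respiratory genes, had log2 signals of 9.61, 9.31, 9.34 and 9.53 in mine drainage and of 8.79, 8.64 and 8.74 in control, a rise of 0.72 (limma adjusted p = 0.00285). HAP1, the heme-dependent activator, fell by 0.45 (adjusted p = 0.0482), with 7.90 to 8.54 in mine drainage and 8.58 to 8.85 in control. That call was lost in 10 of 16 alternative settings. ECM22 and HAP2 were not called, at -0.34 and 0.19, and neither was ROX1, named here after its values were seen, at -0.14 (95% interval -0.53 to 0.24).

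Of 6 genes that Rox1 is known to repress in air besides HEM13, 2 rose and none fell, with a median difference of 0.39. The share called, 33.3%, is near the 31.6% of all probesets. ANB1, the hypoxic form of translation factor eIF5A, rose by 0.62 (limma adjusted p = 0.00972), with 8.94, 9.46, 9.45 and 9.36 in mine drainage and 8.74, 8.62 and 8.69 in control, and the fatty acid desaturase OLE1 rose by 0.65 (adjusted p = 0.0213). CYC7 and COX5B, hypoxic isoforms of respiratory proteins, had 0.47 and 0.31 and just missed the threshold (adjusted p = 0.0546 and 0.0555). AAC3 and HMG2, named after their values were seen, were not called, at 0.14 and -0.13 (limma adjusted p = 0.255 and 0.316). PUG1, HEM13 and ANB1 are each known to be induced in low oxygen, and here PUG1 fell while HEM13 and ANB1 rose.

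Of 6 genes of mitochondrial iron supply and iron regulation, 1 rose and 1 fell, and this 33.3% is again near the 31.6% called over all probesets. MRS4, a mitochondrial iron carrier that supplies ferrochelatase, had log2 signals of 8.80, 8.35, 8.65 and 8.74 in mine drainage and of 7.91, 7.69 and 7.77 in control, a rise of 0.85 (limma adjusted p = 0.0028). Its paralog MRS3 had -0.31 (adjusted p = 0.0724). AFT2, a paralog of the iron regulator Aft1, fell by 0.44 (adjusted p = 0.0128), and AFT1 had -0.13, a value named here beside HMX1 after it was seen. TIS11, which destabilizes transcripts when iron is low, had 6.29, 5.43, 5.53 and 6.05 in mine drainage and 5.52, 5.51 and 5.51 in control (difference 0.32, adjusted p = 0.232), so that only mine drainage replicates 1 and 4 stood clearly above the control arrays.

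Of the 24 genes called on the lists around the 10 heme genes, RTA1 and DAP1 were called in every alternative setting, and none of the 24 changed sign in any. ERG5, SCS7, CCP1, CYB5, GLY1, SHM2, HAP4 and MRS4 lost their call only with the 3'/5' gap as a covariate, a setting in which 22 of the 24 lost it (adjusted p from 0.0507 to 0.588). At the same adjusted threshold, the unmoderated gene-by-gene test that the study ran ended 12 of the 24 calls (adjusted p from 0.0522 to 0.131). The study's own definition was an unadjusted p under 0.05 with at least a 1.5-fold change. It also reported the genes that passed a Benjamini-Hochberg threshold of 0.05. The replicate block ended 8 calls (adjusted p from 0.0631 to 0.113). Leaving out control replicate 2 ended 14 calls, with adjusted p from 0.0503 to 0.147: those of AFT2, ANB1, COX10, CTA1, CYC2, CYC3, CYT2, ERG11, HAP1, LSC1, OLE1, RSB1, SHM1 and YLR046C. Without control replicate 3, 10 of these 14 were lost (adjusted p from 0.0694 to 0.156), and AFT2, ANB1, CTA1 and RSB1 kept their call. Leaving out 1 of the mine drainage arrays ended at most 6 calls, all of them among those 14, and leaving out control replicate 1 ended that of RSB1 alone.

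**Figure D5:**
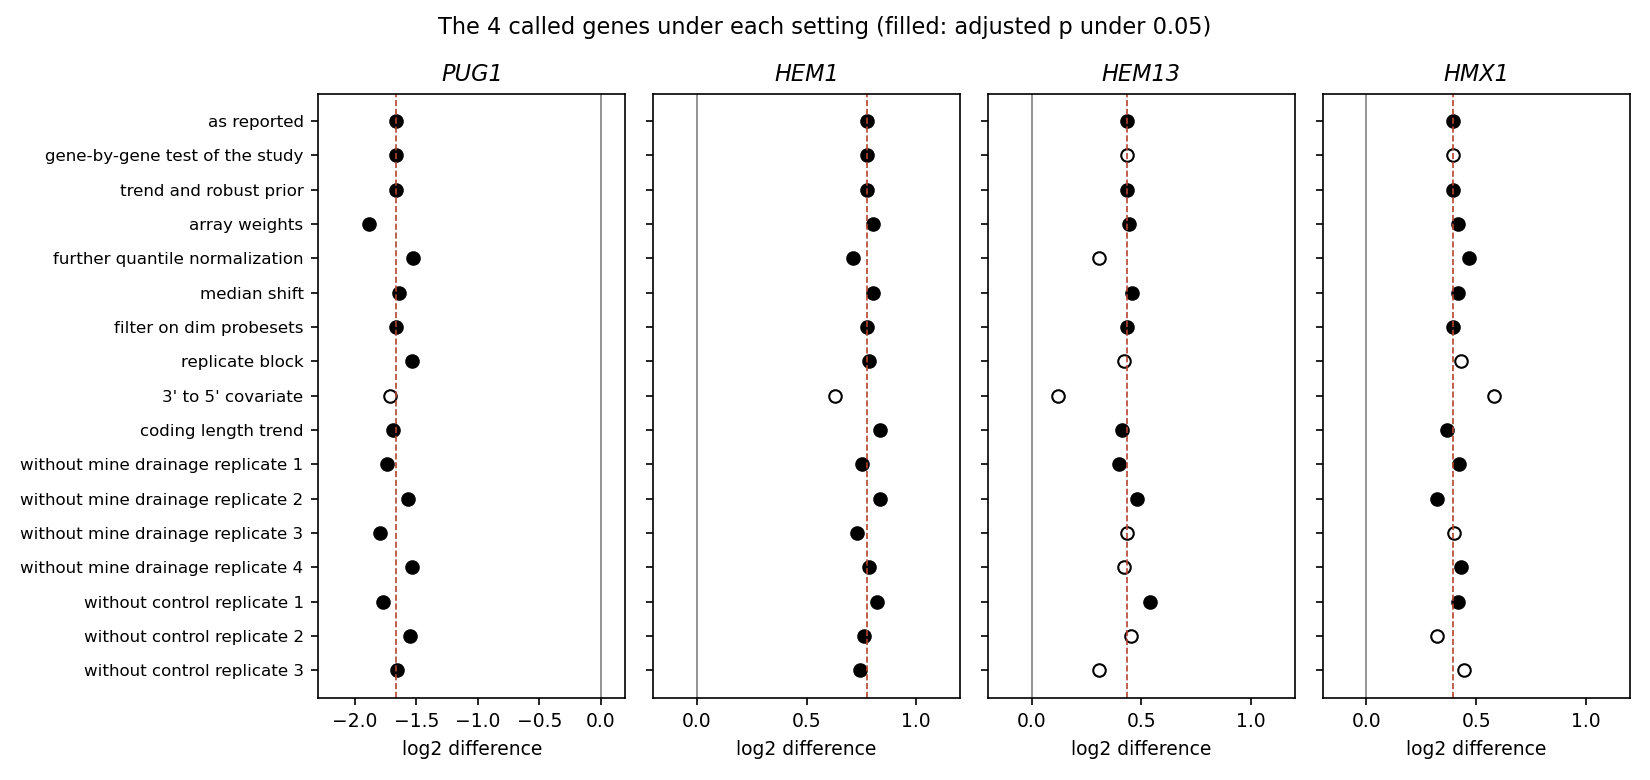
Log2 difference of the 4 called genes as reported and under 16 alternative settings; filled points have an adjusted p under 0.05 and dashed lines mark the reported value. PUG1 and HEM1 keep their call in 15 settings, HMX1 in 10 and HEM13 in 8, and no value changes sign.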

How the data were processed

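The authors deposited log2 signals. They had run RMA (Robust Multichip Average) on the scanned arrays in Partek Genomics Suite, which subtracts background, equalizes the distributions of the arrays by quantiles and combines the probes of a probeset. Nothing was normalized again. Values ran from 0.163 to 12.8 on 7 arrays. Groups and replicate numbers came from the sample titles, and the labels describe separate cultures.

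Probesets were named through the platform annotation, with genes matched by identifier to a RefSeq table of assembly R64. Of 10928 probesets, 5498 named 1 S. cerevisiae gene and 1746 named a gene outside that table, taken as S. pombe. No gene is named from the 128 whose identifiers mark shared probes. The array's genome build is not given in the sources used here, so the table served for names, gene order and coding length, without coordinates. Probe and gene sequences were not used here.

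Tests used limma 3.58.1 in R 4.3.3 on all 5498 probesets, two-sided, with no filter. The genes, the 8 lists around them (58 different genes) and the alternatives were chosen with earlier results of these data known. The rule for named genes takes the 10 genes, up to 4 genes of each list by smallest p and the 5 genes most like PUG1 and HMX1. CYC1, HEM25, ROX1, AFT1, AAC3, HMG2 and the chromosomal neighbours were named after their values were seen. The test was tried first on simulated data with independent noise, which cannot speak to shifts that many probesets of an array share. Precision is limited by the number of arrays. Figures were drawn with matplotlib 3.10.9.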

Additional observations from a re-analysis of the deposited data

Results flagged for a closer look

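In 7 of 68 genes checked, 1 of the 4 mine drainage arrays lay far from the other 3, by a gap to its nearest neighbour that passed Dixon's 95% critical share of the group's range. Chance flags about 5% of groups. HEM2 was flagged for mine drainage replicate 2, at 8.97 beside 8.64 to 8.69 (gap 0.842 of the range), and HEM14 for the same replicate, at 8.36 beside 8.14 to 8.15 (0.926). Neither gene was called with or without that array. Replicate 3 stood high for HMG2 (0.863), KGD2 (0.931) and LSC1 (0.858), replicate 1 stood high for YFH1 (0.889), and replicate 2 stood low for SHM1 (0.858). For SHM1 and LSC1 the groups did not overlap.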

How the results depend on the processing

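The count of S. cerevisiae probesets called, 1737, was 730 with the unmoderated test that the study ran, 2835 with array weights, 929 with the replicate block, 50 with the 3'/5' gap as a covariate and 688 to 1812 without each array in turn. The array weights were estimated gene by gene, a method chosen after the data were seen because limma's default estimate did not converge. Its unconverged weights gave 3296 calls, and under both sets of weights 2 heme genes were called lower (HEM4 and PUG1) and 4 higher (HEM1, HEM13, HEM15 and HMX1). The heme genes called lower numbered 1, against 2 with array weights (PUG1 and HEM4) and 0 with the covariate. Those called higher numbered 3, against 1 with the unmoderated test, 1 with the replicate block, 0 with the covariate and 1 to 4 without each array. The count was 1, HEM1 alone, without mine drainage replicate 3, control replicate 2 or control replicate 3. HEM13 also missed the threshold after a further quantile normalization (0.31, adjusted p = 0.0771). Among genes that were not called, the sign turned for HEM3 with the covariate (-0.0328), for HEM12 with array weights (-0.0055), a further quantile normalization (-0.0298) and some arrays left out (-0.0476 to 0.0475), and for HEM14 with some arrays left out (-0.0347 to 0.108). No called gene changed sign. Same-numbered arrays did not deviate together (r of -0.07, -0.18 and 0.08 for numbers 1, 2 and 3), so the numbers were not taken as pairs. No gene had a second probeset to try. The covariate and the groups move together on 7 arrays, and the cause of its effect was not tested.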

Other observations

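Control replicate 1 was the highest control array for 7 of the 8 HEM genes and the lowest for the remaining one, HEM4. For PUG1 it was the lowest control array, at 5.35 beside 5.78 and 5.57. Of the 4 called genes it was the control array nearest to the mine drainage arrays for HEM1, HEM13 and PUG1, while for HMX1 that was control replicate 3. Its 3'/5' gap, 0.706, was the lowest of the 3 control arrays and close to that of mine drainage replicate 2, 0.705. Without control replicate 1 the rise of HEM13 was 0.54 and the fall of PUG1 1.77, and both were called. Control replicate 3, with the highest 3'/5' gap (1.02), was the lowest control array for 5 of the 8 HEM genes. How often each control array was highest or lowest over all probesets was not counted, so these orders are no result about the HEM genes. The part of RNA or cDNA integrity in these orders was not tested.

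HEM13 and HEM12 lie on chromosome IV with 2 annotated genes between them, RPC11 and BAP3. They did not move alike. HEM13 rose by 0.43 and HEM12 had 0.01, and of the genes between them RPC11, a subunit of RNA polymerase III, had 0.25 (limma adjusted p = 0.227), while BAP3, an amino acid permease, fell by 0.58 (adjusted p = 0.0196). HEM1 lies on the same chromosome beside COX20, a chaperone of cytochrome c oxidase assembly, which rose by 0.85 (adjusted p = 0.0105). The other 3 neighbours of HEM1 read here were RTN1 and LYS4, which rose by 0.38 and 0.33 (adjusted p = 0.0193 and 0.0217), and IVY1, at -0.10 and not called. Over all probesets 14.5% were called higher, and so few genes say little about the region. Neighbours of the other heme genes were also read, and most are not listed here.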
